A study of Mus musculus with 10 samples.

Results

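Liver was compared with spleen, jejunum, ileum and distal colon on 10 expression arrays, 2 from liver and 8 from the other tissues. Each array was hybridised with equal amounts of total RNA pooled from 6 male mice aged 4 months or from 9 male mice aged 28 months, so that every tissue has 1 array at each age and the 5 arrays of an age share their mice. All animals were outbred ICR mice kept one to a cage under specific-pathogen-free conditions on AIN-93 diet, and no group carried a mutation or a treatment. For each probe set the mean of the 2 liver arrays was set against the mean of the 8 others, the 2 ages standing as replicates, and a gene was counted as higher or lower in liver when limma's Benjamini-Hochberg adjusted p was under 0.05, when the sign was the same against each of the 4 other tissues, and when its brighter side lay above 5.48, the median of all log2 signals on the arrays (called the floor below). All values are log2 signals or differences of them, and a signal of 1 gene's probe set cannot be set against that of another gene's. Because the arrays of a tissue are pools that differ in age, a p-value here measures only the spread between these arrays, and the spread between single mice is not seen.

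Liver is mostly made of hepatocytes, which secrete nearly all plasma proteins other than antibodies, package lipids into lipoproteins, make glucose between meals, turn ammonia into urea, break down amino acids, make bile acids from cholesterol, and oxidise and conjugate drugs. A small set of factors (HNF1, HNF4, FOXA, C/EBP and ONECUT proteins and several nuclear receptors) is known to hold this programme. Kupffer cells, sinusoidal endothelial cells, stellate cells and bile duct cells make up the rest of the organ. Small intestinal absorptive cells use some of the same enzymes and lipoprotein genes, whereas spleen is a lymphoid and blood-filtering organ and distal colon a mucous epithelium over a thick muscle coat.

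Of 16 genes listed as defining hepatocytes 15 were called higher in liver, with a median difference of 7.0, and 10 were at least 4-fold above every other tissue. The list was chosen with earlier results of these data known, so it is no independent check of the liver label. Apoa1, read at liver level in jejunum and ileum, was not called. Apob, Apoc3, Cps1, Cyp3a11 and Hnf4a were called but stood less than 4-fold above jejunum or ileum. With spleen not compared 14 were called, and Hnf4a no longer was. The 2 liver arrays correlated at r = 0.992 over probe sets, and liver arrays correlated with the arrays of other tissues at 0.807 to 0.865. Among the other arrays 2 stood apart from the second array of their tissue. The 4-month spleen array held pancreatic enzyme transcripts, with a median of 10.65 over 16 acinar genes against 4.86 in the 28-month spleen array and 4.98 and 4.83 in liver. Both jejunum arrays read higher still for these genes, with a median of 11.80 each, and ileum and distal colon had medians of 5.15 to 5.97. The 28-month ileum array was low for several small intestinal genes, among them Lct (lactase), at 5.22 against 12.44 at 4 months, and Fabp1, at 8.69 against 13.59. Without the 4-month spleen array, 2899 genes were higher and 3725 lower in liver, and without the 28-month ileum array 2882 and 3642. Gene lists were counted again without each of these arrays, and no count of a list moved by more than 2.

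Of 18193 genes tested, 2925 (16.1%) were called higher in liver and 3770 (20.7%) lower. A stricter class held genes at least 4-fold above every other tissue, with both sides raised to the floor first, and counted 470 genes (2.58%); 169 genes (0.929%) were at least 4-fold below every other tissue. Liver thus had fewer called genes on its high side than on its low side, while the stricter class ran the other way; with spleen not compared the stricter class held 523 higher and 535 lower genes. In the 470 genes, 201 were at least 16-fold and 86 at least 64-fold above every other tissue, and for 180 the mean of each of the other tissues lay at or below the floor, so that their folds are lower bounds. Where some other tissue was above the floor, the next highest tissue was distal colon for 100 genes, jejunum for 80, spleen for 65 and ileum for 45. For the 169 low genes the lowest of the other tissues was spleen in 68 cases, distal colon in 49, ileum in 29 and jejunum in 23. Taken at the 4-month arrays alone, 440 of the 470 met the 4-fold rule, and at the 28-month arrays alone 444; 415 met it at both ages. Of the 169 low genes, 160 met it at 4 months, 138 at 28 months and 130 at both.

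**Figure D1:**
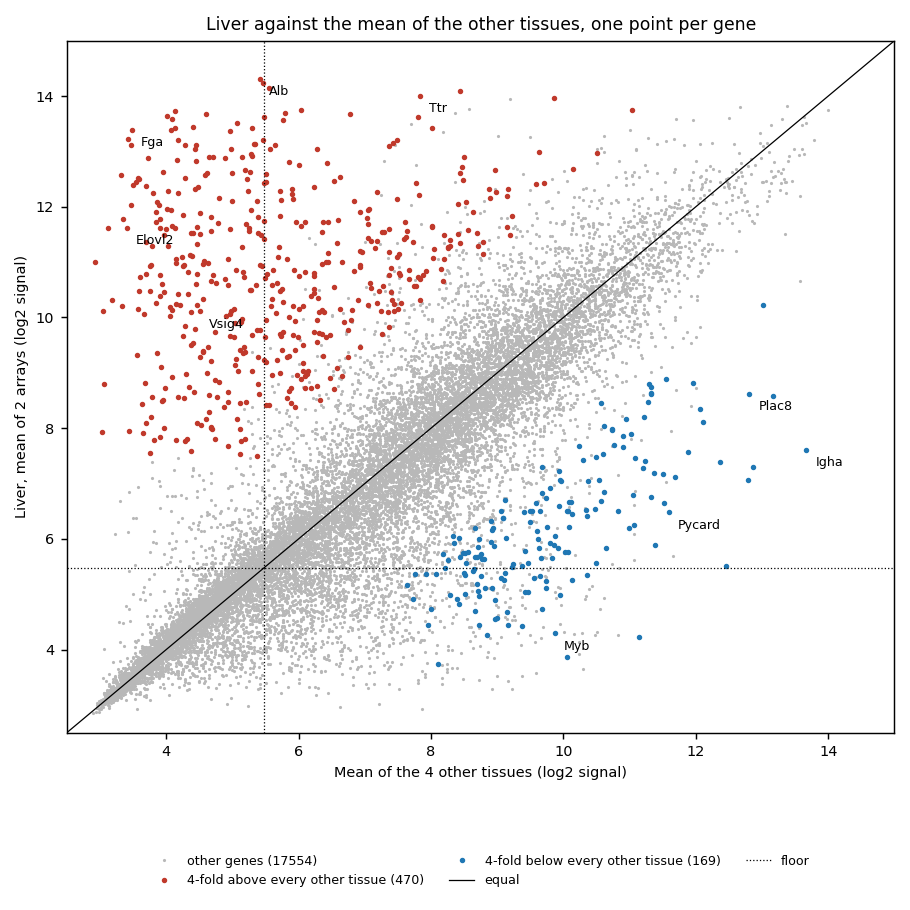
Each point is 1 of 18193 genes, with the mean of the 4 other tissues (log2 signal) on the horizontal axis and the mean of the 2 liver arrays (log2 signal) on the vertical axis; red marks the 470 genes at least 4-fold above every other tissue, blue the 169 at least 4-fold below, and the dotted lines the floor. The red points reach liver signals over 14 at other-tissue means near the floor (Alb), whereas the blue points lie closer to the line of equality.

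The gene furthest above the other tissues was Alb, which encodes serum albumin. It read 14.30 and 14.32 in the 4- and 28-month livers and 4.96 to 6.18, median 5.33, on the 8 other arrays. Its difference from the mean of the others was 8.89 (SE 0.23; limma adjusted p = 5.54e-09), 351-fold over distal colon, the next highest tissue. The 3 fibrinogen chains followed the same pattern. Fgb read 13.69 and 13.78 in liver and 3.93 to 4.24, median 4.14, elsewhere, at least 306-fold higher; Fgg read 13.63 and 13.66 against 3.79 to 4.21, median 4.04, at least 287-fold; and Fga read 13.28 and 13.49 against 3.29 to 3.78, median 3.46, at least 241-fold. In each of these genes the liver arrays and the other arrays lay far apart, with no overlap. Apoa2, an apolipoprotein of high-density lipoprotein, was 299-fold over its next tissue with liver signals of 14.15 and 14.13. Bhmt, which passes a methyl group from betaine to homocysteine, read 13.61 and 13.73 in liver; elsewhere it lay between 3.87 and 6.23, median 4.45, and the fold was at least 292. The rest of the 15 highest-ranked genes were Hpx (hemopexin, a heme carrier), Serpinc1 (antithrombin), Plg (plasminogen), Pzp (a broad protease inhibitor), Akr1c6 (a hydroxysteroid dehydrogenase), Ahsg (fetuin A), Tdo2 (which opens the tryptophan ring), Kng1 (kininogen) and Cyp2e1 (an ethanol-oxidising P450). Their folds ran from 204 for Cyp2e1 to at least 276 for Hpx.

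**Figure D2:**
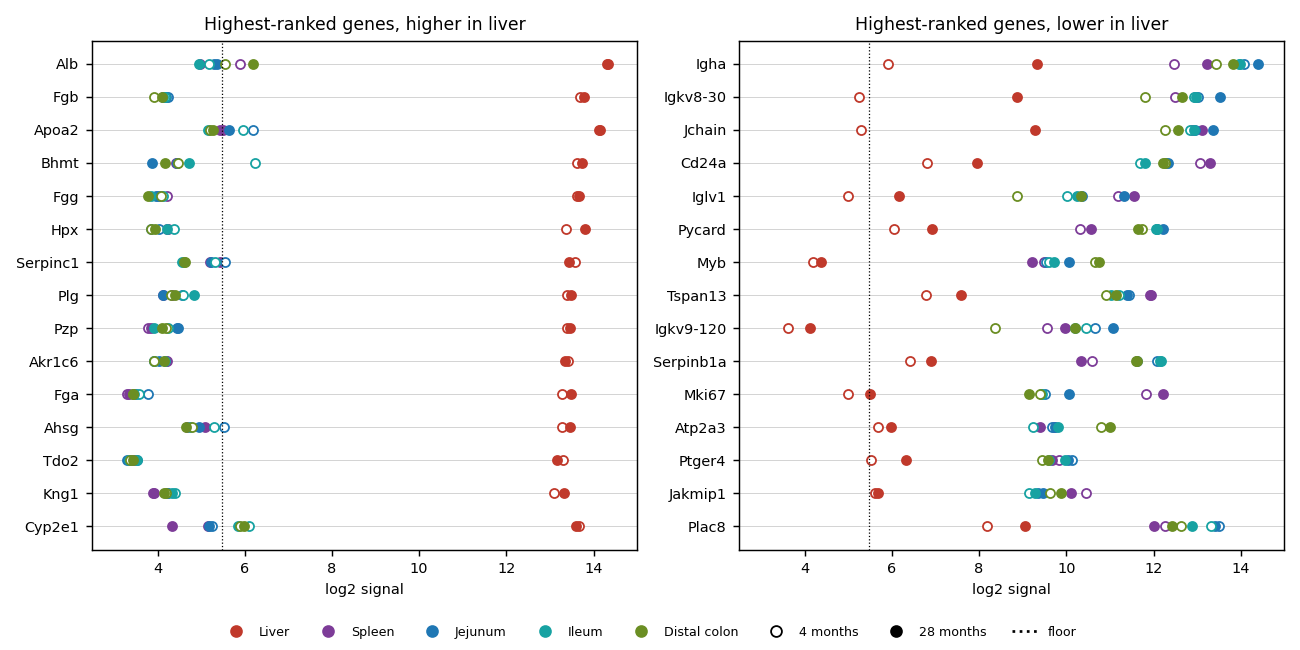
Log2 signal of the 15 highest-ranked genes in each direction on all 10 arrays; colour gives the tissue, open circles 4 months, filled circles 28 months, and the dotted line the floor. On the left the liver points lie between 13.09 and 14.32 and no other point is above 6.23; on the right the liver points lie below all others, and those of Igha, Igkv8-30 and Jchain differ by 3.42 or more between the 2 ages.

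RefSeq promoter sequences (mouse assembly GRCm38.p6) were matched by symbol to 373 of the 470 genes, which have 463 annotated starts. The 9-letter word GTTAATNAT, part of the site bound by HNF1 proteins, was searched on both strands in the 250 bases before each start. It stood before 18 of the 463 starts (3.89%), against 242 of 32851 starts in the whole table (0.737%), 0.558% of the starts of all genes tested and 0 of 181 starts of the genes at least 4-fold lower. The 18 starts belong to Alb, Albfm1, Afm, Pzp, Fga, F13b, Hc, C4bp, Cfhr2, Cp, Igfbp1, Gckr, G6pc, Slco1b2, Prodh2, Glyctk, Hoga1 and Pcbd1, which are carriers, clotting and complement proteins, glucose regulators, an anion carrier and enzymes. The stretches below show the word in capitals for 6 of these genes. Each is 150 bases ending at the last base before the start, read 5′ to 3′ on the gene's strand. The 6 are those furthest above every other tissue among the genes whose word lies within these 150 bases.
Alb, chr5:90460720-90460869, plus strand: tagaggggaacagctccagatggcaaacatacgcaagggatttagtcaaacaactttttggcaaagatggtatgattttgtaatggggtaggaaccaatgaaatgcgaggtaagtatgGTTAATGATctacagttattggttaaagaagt
Fga, chr3:83026003-83026152, plus strand: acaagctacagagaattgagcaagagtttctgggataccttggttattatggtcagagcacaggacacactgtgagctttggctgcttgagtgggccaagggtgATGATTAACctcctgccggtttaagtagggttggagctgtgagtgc
Slco1b2, chr6:141629368-141629517, plus strand: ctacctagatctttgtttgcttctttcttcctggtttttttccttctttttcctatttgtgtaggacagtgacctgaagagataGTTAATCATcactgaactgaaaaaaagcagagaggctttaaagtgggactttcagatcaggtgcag
F13b, chr1:139501557-139501706, plus strand: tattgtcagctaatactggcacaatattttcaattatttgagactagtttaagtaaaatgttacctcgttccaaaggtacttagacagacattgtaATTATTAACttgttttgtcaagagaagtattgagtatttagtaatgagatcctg
Hc, chr2:35061413-35061562, minus strand: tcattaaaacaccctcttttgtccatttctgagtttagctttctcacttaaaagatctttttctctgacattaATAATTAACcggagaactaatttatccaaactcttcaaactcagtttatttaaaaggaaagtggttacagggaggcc
Igfbp1, chr11:7197637-7197786, plus strand: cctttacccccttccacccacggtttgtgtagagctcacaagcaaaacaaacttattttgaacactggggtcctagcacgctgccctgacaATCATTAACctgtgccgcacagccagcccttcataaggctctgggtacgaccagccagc

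The word began 32 bases before the start in Alb, 46 in Fga, 54 in F13b, 59 in Igfbp1, 66 in Slco1b2 and 77 in Hc, and it stood on the gene's own strand in Alb and Slco1b2 and on the opposite strand in the rest. These 6 genes all read at or near the floor outside liver in most tissues: the highest array elsewhere was 3.39 for Slco1b2, 3.46 for F13b, 3.78 for Fga, 3.90 for Igfbp1, 4.53 for Hc and 6.18 for Alb. Of other words searched in the same windows, CAAAGTCCA, which HNF4A binds, stood before 2.16% of the 463 starts, against 0.384% of all starts, 0.42% of the starts of genes tested and 0.552% of those of low genes. TTGCNNAA, a C/EBP word, stood before 15.1%, against 9.56%, 8.34% and 8.84% in the same order. TATAAA stood before 15.8%, against 12.4%, 8.81% and 7.73%. TATAAA and the HNF1 word can overlap by no more than a few letters, and the matches are letters in a window, with no binding measured here.

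Some of the 470 genes, which are 2.58% of the genes tested, lie side by side. The number of neighbours that a random placing would give was not computed. In the gene order of GRCm38.p6, restricted to 16470 protein-coding genes on the array, 456 of them could be placed, 113 were next to another of the 470, and 14 runs of 3 or more held 43 genes. Ahsg, Fetub, Hrg and Kng1 (cystatin-related plasma proteins) form a run on chromosome 16, Fgg, Fga and Fgb on chromosome 3, Apoc4, Apoc1 and Apoe on chromosome 7, and F7, F10 and Proz (vitamin K-dependent clotting proteins) on chromosome 8. Other runs were Itih4, Itih3 and Itih1 on chromosome 14, Bhmt, Bhmt2 and Dmgdh on chromosome 13, and Slc17a2, Slc17a3 and Slc17a1 also on chromosome 13. Runs of Cyp2c, Cyp2d, Ces1, Hsd3b, Serpina and Slco1 genes made up the remainder. Members of these last families, and of runs such as Itih and Slc17a, are related in sequence. Of the 470 genes 101 are read by probe sets that may detect several transcripts, so the level of a single member of such a run is uncertain.

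Plasma carriers and protease inhibitors were almost all higher in liver. Of 18 carrier proteins 17 were called higher in liver and 16 were at least 4-fold above every other tissue, with a median difference of 7.09, against -0.02 over all genes tested. Hpx read 13.36 and 13.81 in liver and 3.86 to 4.38 elsewhere, a difference of 9.49 (SE 0.12; limma adjusted p = 9.87e-11). Ttr, the thyroxine and retinol-binding-protein carrier, read 13.99 and 14.02 in liver but also 10.74 and 11 in distal colon and 9.71 and 10.11 in jejunum, so it stood only 8.78-fold above its next tissue. Selenop, the selenium transport protein, was the carrier not called: 13.83 and 13.81 in liver lay inside its range of 12.68 to 13.92 elsewhere. All 17 protease inhibitors were called higher and 4-fold above every tissue (median 6.36). Mug1 (murinoglobulin) had the largest difference among them, 9.65, with 13.11 on both liver arrays and 3.19 to 4.02 elsewhere. Serping1, the C1 inhibitor, had the smallest, 2.54, since the other tissues themselves read 9.44 to 10.80.

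Clotting genes were mostly higher in liver. Of 24 coagulation and fibrinolysis genes 19 were called higher (18 at least 4-fold above every tissue) and 3 lower, with a median of 6.58. F2 (prothrombin) read 12.87 and 12.94 in liver and 4.37 to 5.02 elsewhere, at least 172-fold higher. F9, whose loss causes haemophilia B, read 11.54 and 11.70 against 3.56 to 4.32, at least 70.7-fold higher, and F13b was at least 79.1-fold higher. F8, made by sinusoidal endothelium rather than hepatocytes, was at least 4.34-fold higher, at 7.58 and 7.61 against 3.94 to 5.25. The lower genes were Thbd (thrombomodulin), Plat (tissue plasminogen activator) and Vwf (von Willebrand factor), which are also endothelial products. F3, tissue factor (-0.96), and Plau, urokinase (0.05), were not called. Thbd read 5.40 and 6.44 in liver against 7.84 to 8.95, a difference of -2.41 (SE 0.25; limma adjusted p = 4.92e-05). The calls of the other 2 were less firm: that of Vwf (-1.06) was lost without the 4-month liver array (-0.68, limma adjusted p = 0.232) and that of Plat (-1.57) without the 28-month spleen array, where its sign was no longer the same in all tissues. In these bulk samples fewer cells of a type and less RNA per cell cannot be told apart.

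Complement components of the plasma were higher in liver, and those of myeloid cells were not called. Of 22 genes 16 were called higher (14 at least 4-fold) and 6 were not called (median 4.83). C9 and C8a, parts of the membrane attack complex, were at least 201-fold and at least 97.8-fold higher; C9 read 13.04 and 13.21 in liver against 4.02 to 4.80. Hc, which encodes C5, was at least 70.7-fold higher and Cfi, the factor I protease, 85.3-fold over its next tissue. The 6 uncalled genes are products or receptors of myeloid cells: C1qa, C1qb, C1qc, Cfp, C3ar1 and C5ar1. C1qa, for one, read 9.14 and 10.10 in liver and 9.16 to 11.20 elsewhere. Leaving out the 28-month liver array, 3 complement genes were called lower in liver.

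Lipoprotein genes showed the division between liver and small intestine. Of 20 genes 15 were called higher and 8 were 4-fold above every tissue (median 3.53). Those restricted to liver were the small apolipoproteins Apoa2, Apoa5 (194-fold), Apoc1 (82.4-fold), Apoc4 (109-fold), Apof (at least 170-fold) and Apom (69.2-fold). Apob, the structural protein of very-low-density lipoprotein and chylomicrons, read 13.36 and 13.17 in liver, 12.95 and 12.24 in jejunum, 13.01 and 12.47 in ileum, 7.77 and 9.46 in distal colon and 3.99 and 4.03 in spleen. Apoa1 read 13.91 and 13.96 in liver, 14.10 and 13.76 in jejunum and 14.19 and 13.93 in ileum, and 4.13 to 4.66 in spleen and distal colon. For both genes the small intestine lay within a log2 unit of liver, and the call of Apoa1 was absent because ileum was the higher tissue. Without the 4-month ileum array Apoa1 was called higher (4.77, limma adjusted p = 1.16e-07). Apoe, by contrast, was high in all tissues, from 10.04 to 11.72, with liver at 13.78 and 13.72.

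Enzymes that break down amino acids were all higher in liver: 35 of 35 were called and 31 were at least 4-fold above every tissue, with a median of 5.73. Tdo2 read 13.30 and 13.17 in liver and 3.30 to 3.54 elsewhere (9.81, SE 0.10; limma adjusted p = 6.19e-11). Mat1a, which makes S-adenosylmethionine in liver, read 12.20 and 12.55 against 3.48 to 3.98, at least 119-fold higher. Gnmt, which consumes it, was 167-fold and Hgd, of tyrosine breakdown, at least 136-fold higher. The histidine pathway genes Hal (28.4-fold), Uroc1 (at least 39.0-fold) and Ftcd (at least 68.3-fold) were higher as well. The urea cycle was less restricted to liver, with 8 of 12 genes called, 3 of them 4-fold above every tissue, and a median of 2.16. Arg1, the final enzyme, read 12.87 and 12.83 in liver and 3.66 to 4.90 elsewhere, at least 166-fold higher. Cps1, the first enzyme, read 13.31 and 13.26 in liver, 12.14 and 12.58 in jejunum, 11.81 and 11.54 in ileum, 7.48 and 7.44 in distal colon and 4.42 and 4.68 in spleen. Otc followed Cps1, with 12.51 and 12.38 in liver and 10.94 to 11.28 in the small intestine. The first steps of the cycle were therefore read strongly in jejunum and ileum too, and Arg1 well above the floor in liver alone among these tissues. Ass1 was called higher (1.99) at a low signal of 6.78 and 7.05, and Asl (3.23), Slc25a13 (3.41), Slc25a15 (2.34) and Nags (1.95) were called too. Glul, which traps ammonia as glutamine, was not called (11.77 and 12.01 in liver, 10.25 to 12.26 elsewhere), nor were Oat, Rhbg and Slc25a2.

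Bile acid synthesis and uptake were high in liver, and ileal bile acid genes were not. Of 27 genes 20 were called higher, 17 of them at least 4-fold above every tissue, and 1 lower (median 3.61). Slco1b2, a basolateral anion carrier, read 12.61 and 12.55 in liver and 3.11 to 3.39 elsewhere (9.26, SE 0.09; limma adjusted p = 6.19e-11), at least 137-fold higher. Slc27a5, which activates bile acids for conjugation, was at least 140-fold and Slc10a1, the sodium-coupled bile acid carrier, at least 89.3-fold higher. Cyp7a1, the rate-limiting enzyme of the classic pathway, was named after its values were seen: it read 9.65 and 9.83 in liver against 4.54 to 4.92, at least 19.2-fold higher. Fabp6, the ileal bile acid binding protein, was the lower gene, at 3.86 on both liver arrays, 12.96 and 13.82 in ileum, and 3.87 and 3.93 in spleen. Its difference of -3.32 came from ileum (-1.25 with ileum not compared, and then no longer called). The sterol exporter pair Abcg5 and Abcg8 was not called, since jejunum and ileum were as high as liver: Abcg5 read 10.24 and 10.22 in liver and 10.40 to 11.44 in the small intestine.

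Glucose and fat metabolism was higher in liver to a smaller degree. In gluconeogenesis and glycogen handling 16 of 20 genes were called higher, 9 of them 4-fold above every tissue, and 1 lower (median 3.42). Igfbp1 (at least 43.9-fold), Gys2, the liver glycogen synthase (at least 32.0-fold), and Gckr, the glucokinase regulator (at least 24.1-fold), were the most restricted. Fbp1, the liver fructose bisphosphatase, read 13.35 on both liver arrays, 11.53 and 11.69 in jejunum and 10.96 and 10.05 in ileum. In fatty acid oxidation and ketogenesis 18 of 22 genes were called higher but only 3 were 4-fold above every tissue (median 1.78): Acaa1b (9.88-fold), Acot12 (4.92-fold) and Cyp4a14 (at least 10.9-fold). In lipogenesis 17 of 23 were called higher, 6 at least 4-fold, and 1 lower (median 2.14). Elovl2, which lengthens polyunsaturated fatty acids, read 11.72 and 11.51 in liver and 3.21 to 3.64 elsewhere, at least 70.6-fold higher, and Thrsp was 65.9-fold over its next tissue. Differences within the 3 lists thus ranged widely, from -2.46 to 7.18, from 0.10 to 5.75 and from -3.05 to 8.21 in the order given. Of the genes named here Igfbp1, Gys2, Gckr, Cyp4a14 and Elovl2 had the mean of every other tissue at or below the floor.

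Drug-handling enzymes included some of the most liver-restricted genes and others shared with gut. Of 37 cytochromes P450 on the list 25 were called higher, 19 at least 4-fold, and 1 lower (median 4.41). Cyp2j5 read 12.51 and 12.30 in liver and 3.21 to 3.75 elsewhere, at least 122-fold higher, and Cyp2c29 was at least 162-fold higher, at 13 and 12.63. Cyp1a2, which oxidises aromatic amines, was at least 44.3-fold higher. Cyp3a11, the main drug-metabolising P450 of mouse liver and gut, read 13.60 and 13.40 in liver, 12.82 and 12.59 in jejunum, and 12.60 and 8.84 in 4- and 28-month ileum. Cyp2s1 was the lower one, at 5.37 and 5.34 in liver against 5.64 to 9.54. Of all 73 genes whose symbols start with Cyp and a family number, 38 were called higher, 27 at least 4-fold, and 3 lower. Among conjugating and other enzymes 36 of 51 were called higher, 16 at least 4-fold, and 1 lower (median 2.35). Sult2a8, a bile acid sulfotransferase, and Ugt2b1, a glucuronosyltransferase, were at least 132-fold and at least 131-fold higher. Mgst3, a microsomal glutathione transferase, was lower, at 8.53 and 8.28 in liver against 10.01 to 12.70 (-3.53, SE 0.14; limma adjusted p = 1.21e-07).

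Growth hormone acts on liver through its receptor and STAT5, and drives male patterns of liver enzymes and urinary proteins. Of 23 genes of this kind 22 were called higher and 16 were at least 4-fold above every tissue (median 4.65). Mup3, a major urinary protein, read 12.34 and 12.24 in liver and 3.80 to 4.18 elsewhere, at least 113-fold higher. Hsd3b5 (at least 76.0-fold), Cyp4a12a (at least 64.8-fold) and Elovl3 (at least 56.5-fold), which are male-predominant liver genes, were higher too. Cux2, known as a female-predominant factor in liver, was the gene not called (0.35, at 6.89 and 7.20 in liver against 6.25 to 7.14). Cyp2b9, a P450 also known as female-predominant, was called higher (4.55) and was at least 4-fold above every tissue. Probe sets for Mup genes may read several members of this near-identical family.

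Of 22 iron and metal handling genes 9 were called higher, 6 at least 4-fold, and 3 lower, with a median of 0.26. Hamp, which encodes the iron hormone hepcidin, read 12.72 and 12.54 in liver and 3.67 to 4.54 elsewhere, at least 142-fold higher (8.68, SE 0.11; limma adjusted p = 1.01e-10). Its regulators Tfr2 (31.3-fold), Tmprss6 (25.1-fold) and Hjv (at least 12.7-fold) and the ferroxidase Cp (15.1-fold) were higher as well, whereas Bmp6, another regulator, was not called (-0.01). The metal carriers Slc39a14 (2.31) and Atp7b (1.72) were called higher. Tfrc, the common transferrin receptor, was lower, at 8.73 and 9.29 in liver against 10.61 to 12.16, as was the copper exporter Atp7a (-1.32). The duodenal reductase Cybrd1 (-3.21) was called lower with jejunum in the comparison and not without it (-1.77). Ferritin heavy chain, Fth1, which has no such restriction, read 13.51 and 13.45 in liver and 13.31 to 14.08 elsewhere.

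**Figure D3:**
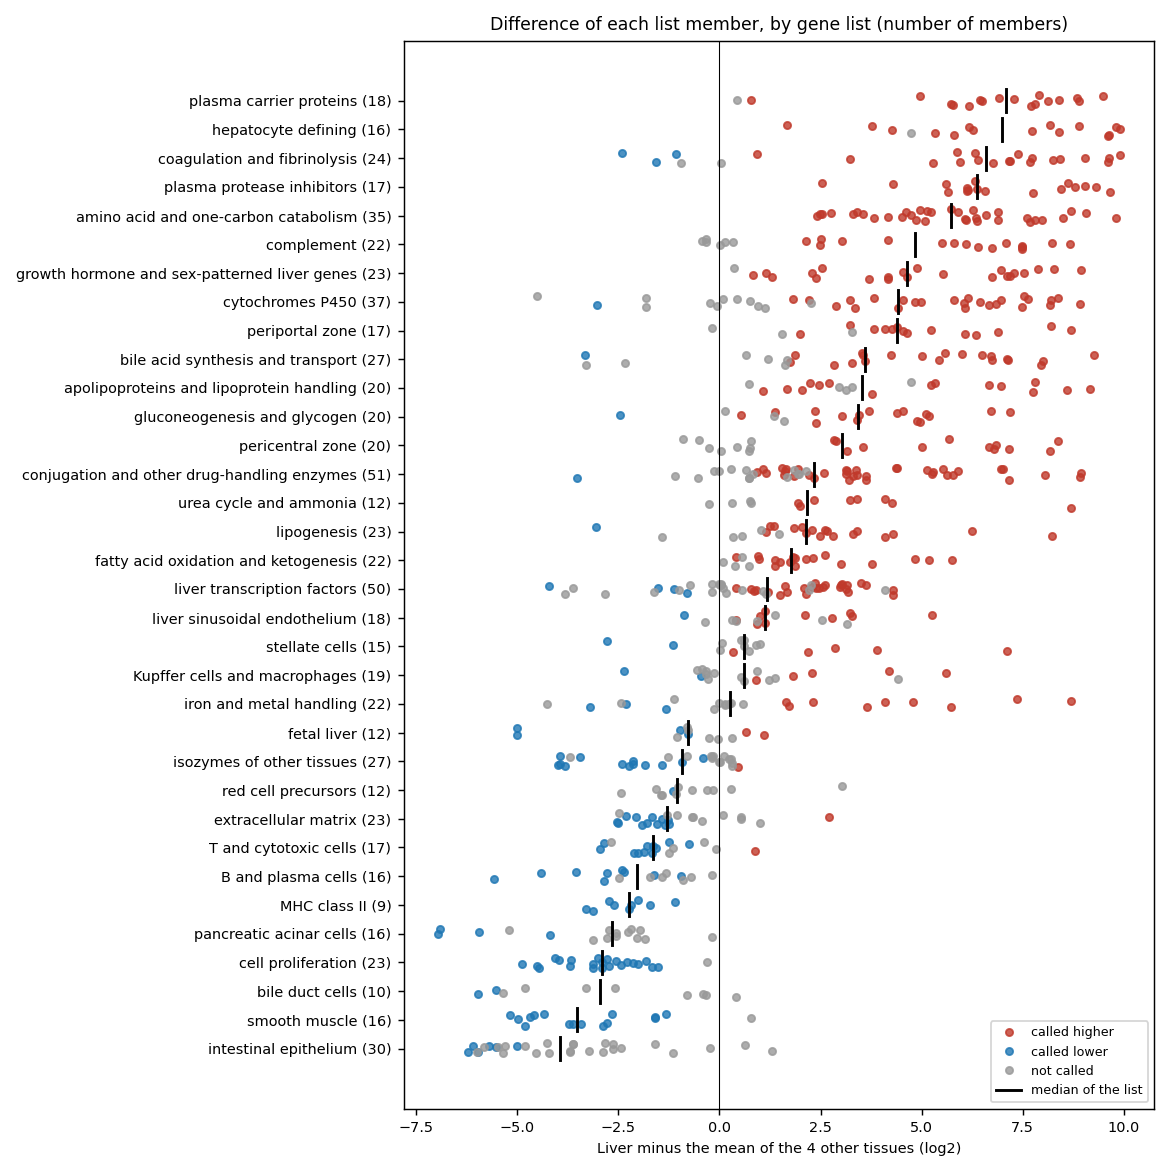
Each point is 1 list member, at its difference between liver and the mean of the 4 other tissues (log2); red points were called higher, blue points lower and grey points neither, black bars mark list medians, and numbers of members stand in parentheses. Medians run from 7.09 for plasma carrier proteins to -3.95 for intestinal epithelium.

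Transcription factors had smaller differences. The list holds liver factors and also factors of other tissues, such as Cdx1, Cdx2 and Pax5, and its counts and median take in both. Of 50 on the list 26 were called higher, 6 of them at least 4-fold above every tissue, 4 lower and 20 not called, with a median of 1.19. The 6 were Onecut1 (at least 15.3-fold), Klf15 (9.37-fold), Prox1 (at least 8.42-fold), Rora (6.95-fold), Esr1 (5.70-fold) and Cebpb (4.02-fold). Onecut1 read 10.07 and 8.75 in the 4- and 28-month livers and 4.72 to 5.52 elsewhere, and Prox1 8.39 and 8.71 against 3.69 to 4.91. Others called higher but nearer to another tissue were Hhex (3.63), Nr1i3, the xenobiotic receptor CAR (3.16), Nr0b2 (3.02), Ppara (3.01), Foxa2 (2.61), Foxa3 (2.57), Nfil3 (2.46), Cebpa (2.39) and Nr5a2 (2.36). Hnf4a was read as high in the 3 gut segments (11.65 to 12.04) as in liver (12.15 and 12.04) and low only in spleen (6.15 and 6.16); its difference of 1.68 became 0.26 with spleen not compared (limma adjusted p = 0.0614). Factors of gut identity lay at the floor in liver: Cdx1 read 4.64 and 4.41 and Cdx2 5.24 and 5.13, against up to 10.03 and 10.19 elsewhere, but both were also low in spleen and so were not called. Onecut2 (9.52 and 9.25 in liver, 9.28 and 9.60 in jejunum), Creb3l3 (11.11 and 11.06 in liver, 11.40 and 10.78 in jejunum) and Nr1h4, the bile acid receptor (10.10 and 10.28 in liver, 9.74 and 10.66 in ileum), were shared with small intestine. Of the lower 4, Nfe2l2 (-1.12, SE 0.14; limma adjusted p = 0.00021) and Pparg (-1.51, SE 0.21; 0.000324) kept their calls with any 1 array left out, while Hnf4g (-4.21) and Spi1 (-0.79) did not: without the 4-month liver array Hnf4g, at -4.13, was no longer below spleen, and Spi1, at -0.58, had a limma adjusted p of 0.075. Of 22 genes counted by nuclear receptor symbols, 7 were called higher, 3 lower and 0 at least 4-fold above every tissue. The shares of all genes tested were 16.1%, 20.7% and 2.58%. This count leaves out Rora and Esr1, which are nuclear receptors with other symbols and were at least 4-fold above every tissue.

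Several enzymes and carriers exist as a liver form and a form of other tissues, and several of these pairs went opposite ways on the arrays. Arg1 was higher in liver by 8.70, whereas Arg2, the mitochondrial arginase, was lower by a difference of -3.95, at 4.65 and 5.67 in liver against 5.85 to 12.47. Pck1, the cytosolic form of the gluconeogenic carboxykinase, differed by 4.40 and Pck2, the mitochondrial form, by -2.46. Scd1, the main liver desaturase, differed by 4.10 (14.01 and 13.91 in liver), and Scd2 by -3.05 (7.45 and 7.91). Pygl, the liver glycogen phosphorylase, differed by 4.89 and the brain form Pygb by -2.13. Gys2 differed by 6.71, while Gys1 had a small difference of -0.41 that was called with all arrays but not without either liver array. Slc2a2, the low-affinity glucose carrier, differed by 4.97 and Slc2a3 by -1.83. Pkm, the pyruvate kinase of most tissues, read 6.22 and 6.86 in liver against 8.84 to 11.49 (-3.94, SE 0.22; limma adjusted p = 9.41e-07); Pklr, the liver form, was not called because jejunum reached liver's level (9.45 and 9.09 against 9.24 and 9.20). Fbp2 (-3.70) was not called either, with spleen below liver. Over all 27 genes listed as forms of other tissues 13 were called lower, 1 higher and 13 neither, with a median of -0.93. Oxct1, which lets tissues burn ketone bodies, was 10.2-fold below every other tissue, at 7.09 and 7.73 against 10.74 to 11.87. Pfkp, a phosphofructokinase, was 7.39-fold and Pkm 5.50-fold below every other tissue, and Ckb (-3.44), Aldoa (-2.40), Hk1 (-2.23) and Hk2 (-2.13) were called lower.

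**Figure D4:**
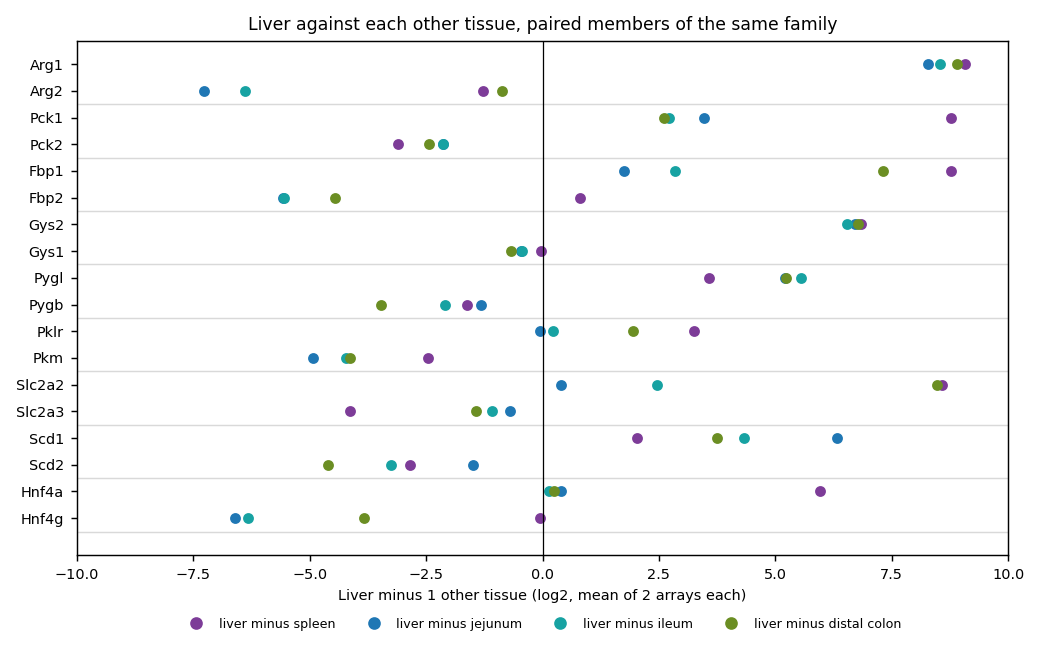
Difference between liver and each of the 4 other tissues (log2, mean of 2 arrays per tissue) for 9 pairs of related genes, the liver form above the other form, with 1 colour per tissue and a vertical line at 0. The upper gene of Arg, Pck, Fbp, Gys, Pygl/Pygb and Scd pairs lies to the right of 0 against every tissue; Pklr, Slc2a2 and Hnf4a come close to 0 against gut segments, and against spleen Fbp2 lies above 0 and Gys1 and Hnf4g lie close to 0.

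Genes that liver shares with 1 neighbour were counted on tissue means raised to the floor, as a description with no test: liver within 2-fold of the named tissue or tissues and at least 4-fold above the rest. Jejunum and ileum together shared 35 such genes, among them Apoa1, Apob, Abcg5, Abcg8, Khk (ketohexokinase), Nags, Slc25a15 and Creb3l3. Jejunum without ileum shared 14 genes, including Fabp1, Cyp3a11, Slc2a2 and Adh4, but without the 28-month ileum array this fell to 4 while the count for jejunum and ileum together rose to 45. Fabp1, for example, read 13.90 and 13.63 in liver, 13.74 and 13.50 in jejunum, and 13.59 and 8.69 in ileum. All 3 gut segments shared 115 genes that were at least 4-fold lower in spleen than in liver, such as Hnf4a, Pigr (the IgA carrier), Ugt2b34 and Krt18. Distal colon alone shared 16 genes, including Sult1a1 (11.73 and 12.12 in liver, 11.72 and 11.92 in distal colon) and Foxa2, and spleen alone shared 23, including Cd5l, Stab2 and Hhex. Without the 28-month ileum array those 2 counts were 22 and 22, and without the 4-month spleen array 16 and 21.

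Zoned genes of the liver lobule were higher on both sides of the lobule. Of 17 periportal genes 14 were called higher and 10 were 4-fold above every tissue (median 4.40); of 20 pericentral genes the counts were 12 and 10 (median 3.02). Among pericentral genes Gulo, of vitamin C synthesis (10.76 and 11.13 against 3.62 to 3.95), and Rgn, regucalcin (13.07 and 13.04 against 3.89 to 8.81), were at least 44.3-fold and 24-fold higher. Pericentral genes that respond to Wnt signals in many tissues were not called: Axin2 read 6.71 and 6.76 in liver and 6.50 to 8.56 elsewhere, Lgr5 5.72 and 6.02 against 4.69 to 7.97, and Tbx3 8.13 and 8.06 against 5.04 to 10.09.

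Markers of the other liver cell types were higher in part. Of 19 Kupffer cell and macrophage genes 5 were called higher, 3 at least 4-fold, and 2 lower (median 0.60). The shares higher and lower were 26.3% and 10.5%, against 16.1% and 20.7% of all genes tested. Vsig4, a complement receptor of resident macrophages, read 9.62 and 10.60 in liver and 3.68 to 6.33 elsewhere (5.60, SE 0.34; limma adjusted p = 1.61e-06), and Clec4f, a Kupffer cell lectin, 8.90 and 9.80 against 4.98 to 5.41, at least 14.7-fold higher. Msr1 (2.30), Folr2 (1.81) and Nr1h3 (0.90) were called as well. Macrophage genes that spleen expresses were not: Cd5l read 10.00 and 11.03 in liver and 10.46 and 10.91 in spleen, and Lyz2 was lower in liver than in every tissue (-2.36). With spleen not compared, 11 of the 19 were called higher, and without the 28-month liver array 5 were called lower. Of 18 sinusoidal endothelial genes 10 were called higher, 3 at least 4-fold, and 1 lower (median 1.13), and 14 were called higher with spleen not compared. Clec4g read 10.79 and 10.78 in liver, 7.79 and 8.21 in spleen and at most 5.02 in gut (5.26, SE 0.15; limma adjusted p = 1.21e-08), and Oit3 (at least 5.67-fold) and Gpr182 (2.78) were higher too. Of 15 stellate cell genes 5 were called higher and 2 lower (median 0.62). Colec11, a collectin, read 10.59 and 10.87 against 3.13 to 4.43, at least 38.1-fold higher, and Colec10 (4.77-fold), Reln (4.58-fold) and Gdf2 (4.18-fold) were 4-fold above every tissue. Of 10 bile duct genes 0 were called higher and 2 lower (20%, against 20.7% of all genes tested), with a median of -2.94. Most of these genes are also expressed by gut epithelium: Epcam read 5.55 and 5.83 in liver, 12.82 to 13.35 in the 3 gut segments and 7.21 and 7.38 in spleen.

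The gene furthest below the other tissues was Igha, the constant region of IgA. It read 5.90 and 9.32 in the 4- and 28-month livers and 12.47 to 14.40, median 13.90, elsewhere, and was 37.6-fold below spleen, the lowest other tissue, on the tissue means. Pycard, an inflammasome adaptor, read 6.04 and 6.92 in liver and 10.32 to 12.22 elsewhere (-5.11), 15.6-fold lower. Myb, a factor of blood and crypt progenitors, read 4.20 and 4.37 against 9.21 to 10.75 (-5.59), at least 14.7-fold lower with liver at the floor. Cd24a (20.7-fold), Tspan13 (14.2-fold), Serpinb1a, a granulocyte elastase inhibitor (14.0-fold), Mki67 (at least 13.8-fold), Atp2a3, a calcium pump (12.9-fold), Ptger4, a prostaglandin receptor (12.1-fold), Jakmip1 (11.9-fold) and Plac8 (11.5-fold) were also among the 15 highest ranked. The antibody transcripts Jchain (34.6-fold), Igkv8-30 (36.0-fold) and Iglv1 (16.3-fold) and 1 other kappa variable gene (at least 14.0-fold) completed them. Over 19 probe sets named for immunoglobulin segments 13 were called lower and 0 higher (median -2.28), and such probe sets may read several segments.

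Cell division genes were low throughout: 22 of 23 were called lower, 9 at least 4-fold below every tissue, with a median of -2.89. Mki67, a marker of cycling cells, read 4.99 and 5.50 in liver, 11.82 and 12.21 in spleen and 9.14 to 10.06 in gut (-4.88, SE 0.18; limma adjusted p = 6.50e-08). Top2a (at least 11.2-fold), Ccna2 (7.45-fold), Ccnb2 (at least 7.22-fold) and Birc5 (at least 6.07-fold) were lower as well, and Pcna, of DNA replication and repair, differed by -1.67 at a liver signal of 10.03 and 9.99. Tyms was the gene not called, below the floor in all tissues. Smooth muscle genes were called lower in 15 of 16 cases, 6 at least 4-fold (median -3.52): Actg2 read 4.55 and 5.05 in liver against 6.65 to 12.61, Myh11 4.89 and 4.97 against 6.65 to 12.46, and Myl9 was 7.52-fold below every other tissue. Of 23 matrix genes 12 were called lower and 1 higher (median -1.30). Col1a2 (-2.05), Col3a1 (-1.78) and Col6a1 (-2.53) were lower, and the higher gene was Fn1, fibronectin, which hepatocytes secrete into plasma (12.44 and 12.59 in liver, 9.14 to 11.75 elsewhere). Of 42 collagen genes 15 were called lower and 6 higher, where 20.7% and 16.1% of all genes tested were. Among them Col18a1, the source of endostatin, was the only 1 at least 4-fold higher, at 11.34 and 11.37 against 7.0 to 8.17.

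Antigen presentation and lymphocyte genes were lower in liver. All 9 MHC class II genes were called lower, 2 at least 4-fold (median -2.24). Cd74, the invariant chain, read 7.77 and 8.02 in liver and 10.06 to 12.25 elsewhere (-3.12, SE 0.22; limma adjusted p = 4.1e-06), and H2-Ab1 read 8.52 and 8.70 against 10.65 to 12.55. Of 16 B and plasma cell genes 9 were called lower and 0 higher (median -2.04). Of 17 T and cytotoxic cell genes 11 were called lower and 1 higher (median -1.64), and without the 4-month liver array 8 were lower. With spleen not compared 7 of the B and plasma cell genes (median -0.75) and 6 of the T and cytotoxic cell genes (median -0.77) were called lower. Cd3g (-2.84), Il7r (-2.96) and Thy1 (-2.10) were lower. Of 12 red cell precursor genes 1 was called lower (8.33%, against 20.7% of all genes tested) and 0 higher (median -1.04). With spleen not compared 2 of the 12 were called higher and 1 lower, with a median of 0.10. Of 23 genes with H2- symbols 11 were lower and 3 higher; H2-Q10, a secreted class I molecule of liver, was at least 4-fold above every tissue and H2-Ab1 at least 4-fold below.

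Gut epithelial genes were low in liver but mostly not below every tissue, spleen being low as well. Of 30 genes 6 were called lower (20%, against 20.7% of all genes tested), with a median of -3.95. With spleen not compared 25 were, 23 of them at least 4-fold. Cdh17 (-6.10), Krt20 (-6.21) and Epcam (-5.97) were the largest of the 6. Some genes of this list were strong in liver, such as Krt18 (10.70 and 11.28) and Fabp2 (10.92 and 10.60). Of 16 pancreatic acinar genes 4 were called lower with all arrays, 2 at least 4-fold (median -2.65), and 5 without the 4-month spleen array, 1 at least 4-fold (median -1.87). The 4 lower with all arrays are 25% of the list, against 20.7% of all genes tested. They were Zg16 (-6.95), Klk1 (-6.91), Clps (-5.95) and Pnliprp2 (-4.19), and Zg16 and Klk1 were those at least 4-fold lower. Among the other tissues the list had its highest medians in jejunum, 11.80 on both arrays. In distal colon its medians were 5.15 and 5.34 but its summed linear signals 34846 and 38054. The signal there thus came from a part of the members only. Clps, pancreatic colipase, read 3.28 and 3.27 in liver, 11.08 and 3.17 in the 4- and 28-month spleens and 7.37 to 12.17 in gut. Its call was lost without the 4-month spleen array and without either liver array (limma adjusted p = 0.0708 without the 4-month and 0.0674 without the 28-month liver), and that of Pnliprp2, a related lipase, was lost without the 4-month spleen array. Of 12 fetal liver genes 2 were called higher (16.7%, against 16.1% of all genes tested) and 4 lower (33.3%, against 20.7%; median -0.78). The higher count was 1 without the 28-month ileum array or either liver array, and the median was -0.19 without the 4-month liver. Peg3 (1.11), called higher, and Gpc3 (-0.78), called lower, lost their calls without either liver array. Cd24a and Cpe, at 4.75 and 5.96 in liver against 8.31 to 11.78, were the 2 that lay at least 4-fold below every tissue.

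Gene families were also counted by symbol. Of 13 apolipoprotein genes 9 were called higher and 1 lower (median 5.33), of 11 glucuronosyltransferases 8 (median 5.28) and of 3 Mup genes 3 (median 7.50). Of 40 serpins 14 were called higher, all at least 4-fold above every tissue, and 3 lower, 1 of them (Serpinb1a) at least 4-fold. Of 347 solute carriers 85 were called higher and 46 lower, where 16.1% and 20.7% of all genes tested were. Their median was 0.04, near that of all genes. The 5 solute carriers at least 4-fold below every tissue were Slc1a5, Slc7a1, Slc38a1, Slc25a24 and Slc25a36.

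The difference between the ages in liver was set against that in the 4 other tissues for each gene. In limma's fit of this term (tissue, age and their interaction for liver) 9 genes (0.0495%) were higher in the 28-month liver and 0 lower at an adjusted p under 0.05, and 583 had an unadjusted p under 0.05. Each rests on 1 pool per age in liver, so the spread behind these p-values comes wholly from the other tissues (3 residual degrees of freedom), and the count ran from 3 to 463 under other settings. Orm2, an acute-phase glycoprotein, read 6.31 at 4 months and 10.57 at 28 months in liver and 3.48 to 3.78 elsewhere (term 4.24, limma adjusted p = 0.00556). Moxd1 rose from 5.55 to 9.50, Cxcl14 from 4.27 to 8.16, Nnmt, a nicotinamide methyltransferase, from 5.54 to 8.78, and Dmrta1 from 3.85 to 6.96. The plasma cell transcripts Jchain (5.30 to 9.28), Igkv8-30 (5.24 to 8.88) and Igha (5.90 to 9.32) and the mucosal peptide Tff3 (6.47 to 9.44) were the rest, and in these the other tissues that express the gene changed by less than 1. In liver 14 of the 16 B and plasma cell genes and 17 of the 19 Kupffer cell and macrophage genes read higher at 28 months, with medians of 0.46 and 0.79. Of 11666 genes above the floor in liver 6129 did, with a median of 0.02. Other lists had similar shares with smaller medians: coagulation 23 of 24 (0.09), complement 20 of 22 (0.20), stellate cells 13 of 15 (0.25) and smooth muscle 14 of 16 (0.24). The summed linear signal of the B and plasma cell list was 1157 in the 4-month and 4646 in the 28-month liver, against 7899 to 59754 elsewhere, and its members Cd37, Cr2, Fcmr, Irf4, Pax5 and Tnfrsf13b lay below the floor in liver at both ages; its part in the age differences was not tested.

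**Figure D5:**
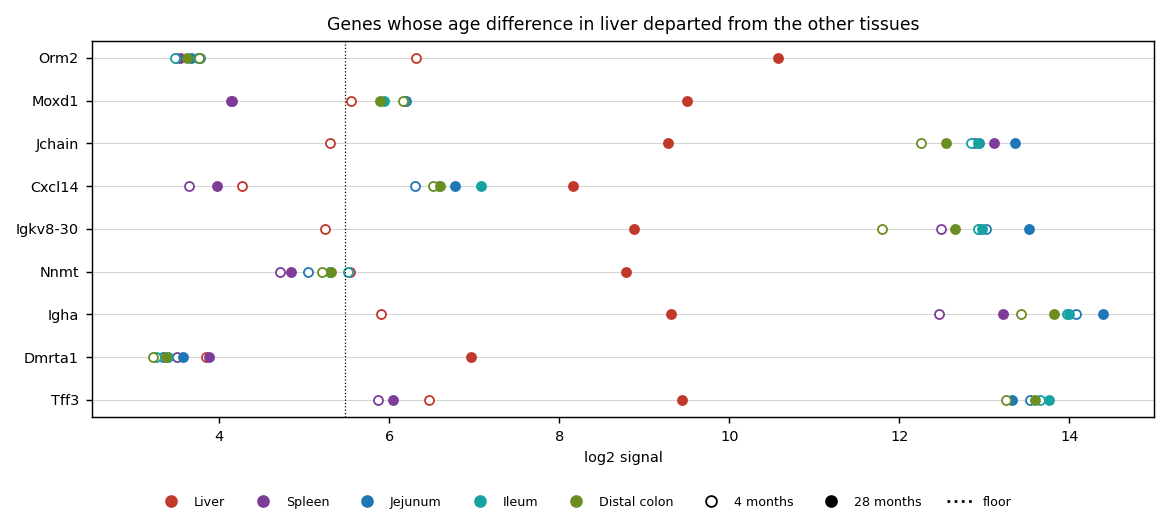
Log2 signal on all 10 arrays of the 9 genes whose age difference in liver departed from that in the other tissues, with colour for tissue, open circles for 4 months and filled circles for 28 months, and a dotted line at the floor. In each row the filled liver point lies 2.97 or more to the right of the open one, while the 2 points of every other tissue lie within 1 of each other.

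Over the 470 genes the median absolute difference between the 2 liver arrays was 0.18, against 0.13 over all genes above the floor in liver, and 14 of the 470 differed by 1 or more. Those read higher at 28 months were Orm2, Igfbp1 (10.11 to 11.75), Fgl1 (11.17 to 12.60), Slc13a3 (7.73 to 9.04), Prg4 (9.16 to 10.42), Cxcl1 (9.52 to 10.78), Orm1 (11.86 to 13.05), Lrg1 (11.31 to 12.49) and Ildr2 (8.37 to 9.54). Those read lower were BC023105 (10.45 to 7.29), Slc25a30 (10.79 to 9.43), Onecut1 (10.07 to 8.75), Hamp2 (10.27 to 9.03) and Cyp4a14 (9.53 to 8.32). Apart from Orm2, these 14 did not pass the test of the liver-by-age term, and they are given as values. A probe set of another sign existed for 2 of the 160 genes among the 470 that have further measured probe sets, Rtel1 and Ak4.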

How the data were processed

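RNA was read on 10 Affymetrix mouse genome arrays labelled with a 3′ IVT Express kit, per the labels' protocols. The authors deposited log2 signals for 45101 probe sets, from 2.71 to 14.8, with array medians of 5.42 to 5.52. MAS5 and affy appear in the submitters' processing notes without version or role; the sources used here do not give how the log2 signals were normalized. No counts exist, so precision rests on the number of arrays. Of the probe sets, 34958 have 1 gene in the platform annotation, 932 several and 9211 none, and the last 2 kinds were left unnamed. A gene is its probe set with the highest mean linear signal.

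limma 3.58.1 (R 4.3.3) fitted 1 mean per tissue (5 residual degrees of freedom, 3.89 prior) and, separately, a liver-by-age term (3 residual). Adjustment ran over 45037 probe sets after removal of 64 controls, and the fit was checked on simulated data. Folds against every other tissue use tissue means raised to the floor; "at least" marks a side at the floor. The tissues of an age come from the same mice, per the labels, so age was also fitted as a block. Alternatives covered arrays, tissues, scaling, floor, filter, probe set choice, prior and thresholds.

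The members, gene lists and tests were chosen with earlier results of these data known. Named were the 15 genes per direction furthest from every other tissue, up to 6 members of each list per direction, 4 lists in full and the genes of the age term; other names were chosen after their values were seen. Python 3.11.15 and matplotlib 3.10.9 made tables and figures.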

Additional observations from a re-analysis of the deposited data

Results flagged for a closer look

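In 9 genes the age difference in liver departed from that in the 4 other tissues by limma's test of the term (adjusted p from 0.00556 to 0.0391). The term was 4.24 for Orm2, 4.08 for Moxd1, 3.73 for Jchain, 3.55 for Cxcl14, 3.18 for Igkv8-30, 3.17 for Nnmt, 3.05 for Igha, 2.89 for Dmrta1 and 2.86 for Tff3, each positive, with liver higher at 28 months. Another measured probe set of Cxcl14 had a difference of the other sign between liver and the other tissues. Since liver has 1 array per age, no check within liver exists for any of them, and the spread in the test comes wholly from the other tissues.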

How the results depend on the processing

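With age as a replicate block, 2924 genes were higher and 3764 lower in liver, 470 and 169 at least 4-fold, so the pairing of tissues by their mice changed no count by over 1.5 times and no call of a named gene. Leaving out 1 array at a time gave 2414 to 2948 higher, 3025 to 3781 lower, 465 to 479 at least 4-fold higher and 141 to 194 at least 4-fold lower. Quantile normalization gave 3212 and 3471 higher and lower, equal medians 3201 and 3431. The count of genes at least 4-fold lower depended on the other tissues and the floor: it was 535 with spleen not compared, 44 with the floor at the 75th percentile (where 2401 genes were lower) and 99 with each gene taken as the median of its probe sets, 96 of them among the 169. A 2-fold rule gave 868 and 634 genes, an 8-fold rule 297 and 37. The liver-by-age count was 3 with jejunum not compared, 17 with an intensity trend, 4 at an adjusted p under 0.01, and 463 with values raised to the floor before the fit, 6 of them among the 9; leaving out 1 array of another tissue removes that tissue from this term, and leaving out a liver array removes the term. Of 6069 comparisons of 289 named genes under 21 other settings, 5949 kept the call of higher, lower or neither. Any change of sign in a gene called in neither fit is counted among these. In the rest 80 lost a call, 39 gained one and 1 reversed, Tpi1, from 0.01 to -0.63 with spleen not compared. The causes were not tested. The list counts without single arrays or spleen, and the shared-gene counts without an array, were added after seeing the data. Signals near the floor limit every fold whose dimmer side lies there.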

Other observations

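Only 208 of the 470 genes at least 4-fold above every other tissue and 30 of the 169 at least 4-fold below stand in a gene list. The genes in this paragraph lie outside the lists and were chosen after their values were seen. They include 3 pentraxin and serum amyloid genes: Apcs (serum amyloid P) read 12.55 and 13.23 in liver and 4.39 to 5.24 elsewhere, Crp (C-reactive protein) 12.52 on both liver arrays against 3.50 to 5.81, and Saa4 12.23 and 12.48 against 4.31 to 4.67. Purine and glyoxylate metabolism was represented by Uox, urate oxidase (13.08 and 13.02 against 4.64 to 6.26), and Hao1, glycolate oxidase (12.10 and 11.96 against 3.28 to 3.64). Ttpa, which returns vitamin E to plasma, read 12.58 and 12.66 against 4.24 to 6.25, and Asgr1, of the asialoglycoprotein receptor, 11.68 and 11.63 against 3.92 to 4.26. Nlrp12, an innate immune sensor described mainly in myeloid cells, read 11.26 and 10.84 in liver and 3.79 to 4.91 elsewhere, on the only measured probe set of the gene.

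On the low side, Casp1, the protease that inflammasomes activate, read 6.39 and 6.65 in liver against 9.47 to 10.87 (-3.82, SE 0.10; limma adjusted p = 5.95e-09), beside its adaptor Pycard at -5.11. Aldh18a1, of proline synthesis, read 4.48 and 5.48 against 8.68 to 11.34, and Acss1, a mitochondrial acetyl-CoA synthetase, 4.18 and 4.70 against 8.31 to 9.43. Crip1 (8.30 and 8.87 against 11.87 to 13.89) and S100a6 (6.22 and 7.27 against 9.88 to 13.26) were low as well.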
